A study of Mus musculus with 81 samples.

Results

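RMER16 and RMER17 elements are 2 groups of rodent endogenous retrovirus (ERV) repeats that RepeatMasker places in the ERVK family. Murine ERV (mERV) loci were members if their species name, the text before the first colon of the locus identifier, began with RMER16 or RMER17, a rule that reads names alone. The rule found 5143 RMER16 loci of 9 species and 23353 RMER17 loci of 10 species, 28496 of the 970384 long terminal repeat (LTR) loci listed and 19 of 680 species. RNA-seq and methylated DNA capture (MBD-seq) came from E18.5 fetal testes of OG2 mice. OG2 mice express EGFP under Pou5f1 regulatory sequence in germline cells. The fetuses were F1 or F3 descendants of F0 dams that drank 50 nM tributyltin (TBT), an organotin that activates the nuclear receptors RXR and PPARγ, or the DMSO vehicle. F3 fetuses descended from these dams through F1 and F2 parents of the same exposure line and were not themselves exposed. Sorting gave the EGFP-positive germline populations P4 and P5, which differed in side scatter, and the EGFP-negative somatic population P6. RNA-seq libraries numbered 5 DMSO and 7 TBT in F1 P4, 4 and 7 in F1 P5, and 5 and 7 in F1 P6. In each F3 population there were 4 DMSO and 5 TBT libraries. MBD-seq of P6 DNA had 3 DMSO and 4 TBT libraries in F1, and 5 and 7 in F3. For the RNA-seq libraries, the labels and methods do not say whether those of a group came from separate litters, so their p-values measure only the spread between these libraries. The MBD-seq samples were described as made independently.

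An ERV begins as a provirus in which an LTR stands at each end of an internal region with the retroviral genes. Recombination between the LTRs often removes the internal region and leaves a solitary LTR, and LTRs carry promoter and polyadenylation signals. Many ERVs of the ERVK family are silenced by DNA methylation in somatic cells. Prenatal male germ cells lose most DNA methylation and regain it before birth, which makes the fetal testis a tissue where ERV RNA is often followed. RMER16-int, RMER17A-int and RMER17C-int are internal regions, and the other member names are LTRs.

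RMER16 and RMER17 elements differed from each other in base composition and place. Of RMER16 loci 78.1% and of RMER17 loci 68.8% lay outside annotated genes, against 64.5% of all LTR loci. RMER16 sequence had 37.3% G or C and 4.27 CpG per kilobase (kb), whereas RMER17 had 50.6% and 8.27, and all LTR loci 43.8% and 8.76. RMER17B, with 12.4 CpG per kb, was the densest RMER17 species. RMER17A2 stood apart by chromosome, since 38.5% of its 2594 loci were on chromosome Y against 4.15% of all LTR loci. Most loci were short: the median length was 331 bases for RMER16 and 287 bases for RMER17.

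The stretches below are the first bases, at most 300, of loci outside genes that were among the highest of their group in germline cells. They were read from the GRCm38.p6 assembly in the direction of the plus strand, since the files do not give the strand of a repeat, with each CG dinucleotide, the main site of DNA methylation in mammals, in capitals.
RMER17C, chr5:65046524-65046823, plus strand: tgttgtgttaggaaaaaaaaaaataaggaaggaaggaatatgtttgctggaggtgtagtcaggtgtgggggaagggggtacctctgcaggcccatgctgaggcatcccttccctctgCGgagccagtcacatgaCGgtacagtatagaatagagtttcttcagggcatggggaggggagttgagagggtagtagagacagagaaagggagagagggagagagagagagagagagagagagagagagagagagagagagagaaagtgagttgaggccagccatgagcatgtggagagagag
RMER17B, chr8:84322589-84322888, plus strand: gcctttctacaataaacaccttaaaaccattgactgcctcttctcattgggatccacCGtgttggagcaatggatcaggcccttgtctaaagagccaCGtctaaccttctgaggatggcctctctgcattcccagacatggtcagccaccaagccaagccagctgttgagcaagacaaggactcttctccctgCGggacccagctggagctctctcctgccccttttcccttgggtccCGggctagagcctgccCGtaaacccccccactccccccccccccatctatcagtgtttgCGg
RMER16-int, chr13:66498074-66498298, plus strand: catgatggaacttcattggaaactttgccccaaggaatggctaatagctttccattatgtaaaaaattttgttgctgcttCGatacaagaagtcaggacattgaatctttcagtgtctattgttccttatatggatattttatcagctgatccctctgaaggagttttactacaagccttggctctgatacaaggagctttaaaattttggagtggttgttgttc
The RMER17B stretch held 6 CG dinucleotides in 300 bases, the RMER17C stretch 2 in 300, and the RMER16-int stretch 1 in 225. Among loci of 200 to 400 bases, a CG, which reads alike on both strands, was present in 86.2% of RMER17B, 75.7% of RMER17C and 67.2% of RMER16-int loci, against 77.9% of all 376791 LTR loci of that length.

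A second set is shown because these copies gave most of the somatic RMER16A3 signal outside genes. The first line is the reference and capitals in the third mark bases that differ from it.
RMER16A3, chrY:59665902-59666009, plus strand: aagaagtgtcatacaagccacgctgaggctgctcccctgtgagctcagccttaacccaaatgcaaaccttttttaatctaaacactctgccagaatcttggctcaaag
RMER16A3, chrY:15425526-15425633, plus strand: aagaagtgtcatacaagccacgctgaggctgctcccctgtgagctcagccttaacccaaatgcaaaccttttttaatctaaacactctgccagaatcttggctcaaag
RMER16A3, chr3:6340345-6340452, minus strand: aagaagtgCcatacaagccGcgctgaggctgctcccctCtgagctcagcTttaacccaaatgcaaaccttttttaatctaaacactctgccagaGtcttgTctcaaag
Both chromosome Y copies were identical, and the chromosome 3 copy differed at 6 of 108 bases (94.4% identity). Exactly this sequence also occurs at chr10:100142799-100142906, in an intron, and at chrY:20138040-20138147, outside genes, so reads from these copies cannot be told apart by sequence over the locus.

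Values are CPM, counts at LTR loci scaled to library size by TMM. Libraries held 2017404 to 8161548 LTR reads, except 4 F3 germline libraries with 246520 to 1606422 (TBT libraries 5 and 9 of P4, DMSO library 2 and TBT library 5 of P5), which are called shallow. In F1 P6, TBT libraries 7 and 8 stood apart, with 6.79% and 6.95% of LTR reads outside genes against 0.999% to 1.82% in the other F1 P6 libraries. LTR loci in 9 of 13 germ cell genes fixed as markers could be read. Their summed CPM averaged 16404 in F1 P4, 11220 in F1 P5 and 34.7 in F1 P6, and 11512, 7778 and 65.8 in F3, with single libraries as low as 1280 in F3 P4 and 142 in F3 P5. LTR loci in Sertoli cell genes averaged 1090 and 1067 CPM in P6 and at most 54.8 in the germline populations. In bulk samples, fewer cells of a type and less RNA per cell cannot be told apart.

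RMER17 elements gave more reads than RMER16 elements, and both groups were below the average LTR locus per length in every population. RMER16 elements took 0.228% ± 0.004 (SD, n = 12) of LTR reads in F1 P4, 0.267% ± 0.012 (n = 11) in F1 P5 and 0.254% ± 0.020 (n = 12) in F1 P6. RMER17 elements took 2.08% ± 0.043, 2.15% ± 0.063 and 1.85% ± 0.013 of LTR reads in the same populations. In F3, with 9 libraries each, the RMER17 share was 2.23% ± 0.061 in P4, 2.63% ± 0.52 in P5 and 1.81% ± 0.013 in P6, and the RMER16 share was 0.266% ± 0.044, 0.377% ± 0.13 and 0.235% ± 0.0035. The somatic RMER17 shares, 1.80% to 1.87%, were all below the germline shares, 2.01% to 3.59%. In germline cells, 7 RMER17 loci of 1 gene, Fkbp6, held much of the RMER17 CPM. Their part was 18.2% in F1 P4, 12.8% in F1 P5, 24.5% in F3 P4 and 12.6% in F3 P5, while they averaged at most 1.56 CPM each in P6. The shares without these loci were not computed. Per kb of locus, RMER16 elements averaged 0.979 to 1.43 CPM over the 6 populations, RMER17 elements 2.09 to 2.97, and all LTR loci 2.99 to 3.61.

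Within RMER16, the internal region RMER16-int had the highest mean total over all RNA libraries, 816 CPM, followed by the LTR species called RMER16 at 700 CPM. RMER16_Mm (298), RMER16B2 (288), RMER16A3 (212), RMER16A2 (113), RMER16B3 (96.8), RMER16C (82.5) and RMER16B (76.1 CPM) followed. The order differed by population, since the species called RMER16 was above RMER16-int in F1 P4 (783 against 645 CPM) and F3 P4 (1097 against 795 CPM). Per kb the pooled order turned, with 4.25 CPM for the species called RMER16 and 0.48 CPM for RMER16-int, the lowest of the group. Within RMER17, RMER17C led with a mean total of 6757 CPM, before RMER17C2 (3607), RMER17C-int (2841), RMER17B (2363), RMER17A (1969), RMER17A2 (1160), RMER17D2 (997), RMER17B2 (961), RMER17D (594) and RMER17A-int (214 CPM). In P6, RMER17C-int, with 863 CPM in F1 and 765 CPM in F3, was below RMER17A, RMER17B and RMER17A2. Per kb, RMER17C2 was highest at 5.08 CPM and RMER17A2 lowest at 0.97 CPM. RMER17C-int varied most between germline and soma, with 5.15 CPM per kb in F1 P4, 3.77 in F1 P5 and 1.16 in F1 P6, and 7.70, 4.61 and 1.03 in F3. Most of the RMER17 loci in the gene Fkbp6, described below, are RMER17C-int. Each of these averaged 573.6 to 573.8 CPM in F1 P4 and at most 0.82 CPM in F1 P6. The contrast without them was not computed.

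Much of the signal sat in introns, and many intronic members carried nearly the same value as unrelated LTR loci of the same gene. Fkbp6, an immunophilin gene needed for male meiosis, is the clearest case. Its introns hold 7 RMER17 loci of 66 to 626 bases, whose means lay between 573.6 and 573.8 CPM in F1 P4, while the 45 other LTR loci in the gene had a median of 573.6 CPM. The same loci had 376.3 to 377.3 CPM in F1 P5 and 0.70 to 0.83 CPM in F1 P6. In F3 they had 903.1 to 903.3 CPM in P4, 444.3 to 449.5 in P5 and 1.56 CPM in P6. These 7 loci made up 18.2% of the RMER17 CPM in F1 P4, 12.8% in F1 P5 and 24.5% in F3 P4. Of intronic RMER17 loci, 43.1% to 79.2% by population matched a neighbouring LTR locus of the same gene within 2%, as did 37.1% to 80.9% of intronic RMER16 loci and 54.5% to 83.4% of all intronic LTR loci. Where an intronic locus carries the value of its neighbours, it cannot be told apart from reads of the host gene.

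The leading RMER16 locus in germline cells was a copy of the species called RMER16 in an intron of Mrpl42, a mitochondrial ribosomal protein gene (chr10:95494355-95494780). It had 279 ± 50 CPM (SD, n = 12) in F1 P4, 203 ± 43 (n = 11) in F1 P5 and 77.1 ± 20 (n = 12) in F1 P6. In F3 P4, P5 and P6 it had 683 ± 280, 388 ± 300 and 56.2 ± 12 CPM (n = 9 each). Other intronic LTR loci of Mrpl42 had similar means, 291, 204 and 77.1 to 77.6 CPM in F1 P4, P5 and P6. In F3 they had 724 to 725, 427 to 428 and 54.6 CPM. The RMER16 signal there cannot be told apart from reads of the host gene. In somatic cells the highest RMER17 locus was an RMER17C copy in an intron of Sparc, which codes for a secreted matrix protein (chr11:55401126-55401562). Its P6 libraries had 722, 798 and 1068 CPM as lowest, median and highest in F1, and 628, 728 and 783 CPM in F3. No germline library exceeded 83.3 CPM at this locus. Other leading somatic loci lay in introns of Smoc2 and Gpc3 for RMER17, and of Acaa2 and Rbbp4 for RMER16.

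Outside annotated genes, RMER17 elements formed a larger share of LTR reads in germline than in somatic cells, and RMER16 elements did not. The RMER17 share of LTR reads outside genes was 3.15% to 6.55% over 41 germline libraries (median 4.02%) and 0.558% to 1.97% over 21 P6 libraries (median 0.827%). RMER17 elements make up 2.57% of LTR loci and 2.81% of LTR bases outside genes, so every germline library lay above its share of bases and every somatic library below. The highest somatic values were those of F1 P6 TBT libraries 7 and 8, without which the somatic range was 0.558% to 1.30%. RMER16 elements, with 0.641% of loci and 0.894% of bases outside genes, took 0.513% to 1.31% in germline libraries (median 0.823%) and 0.782% to 1.30% in P6 libraries (median 0.992%). These RMER16 ranges overlapped, and the group joins species of unlike direction. RMER16A3 had a median of 0.0428% in germline and 0.638% in P6 libraries, whereas RMER16-int had 0.564% and 0.242%. The other RMER16 species also had higher medians in germline libraries. Germline and somatic tables were normalized apart, so the shares are given as a description with no test.

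**Figure D1:**
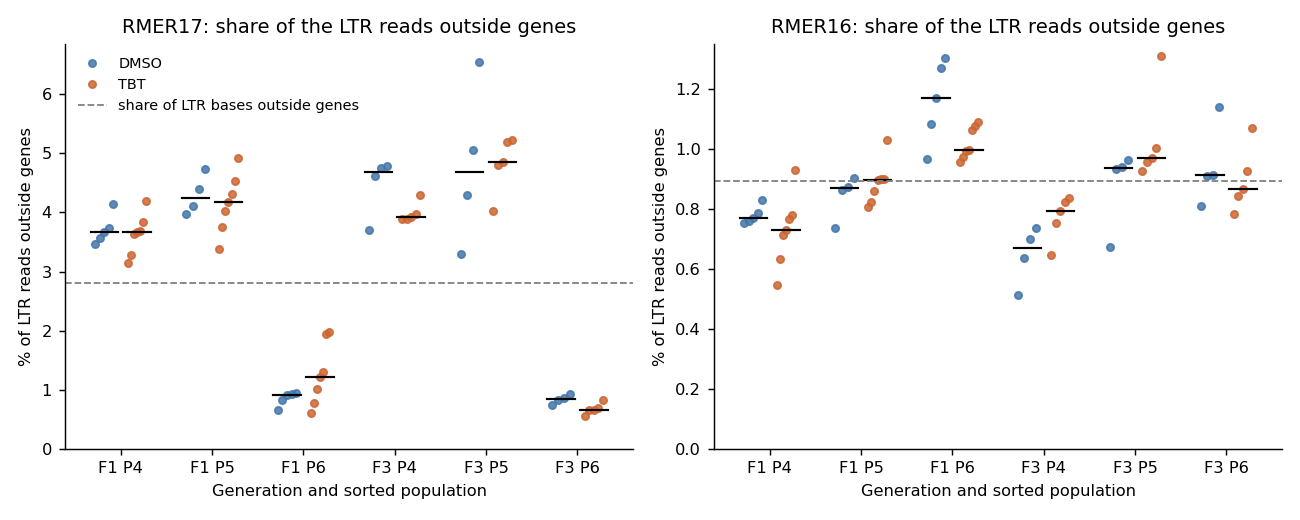
Share of the LTR reads outside genes taken by RMER17 (left) and RMER16 elements (right), in percent. Points are libraries by generation and sorted population, short bars are group medians, and the dashed line is the share of LTR bases outside genes (2.81% and 0.894%). RMER17 points lie between 3.15% and 6.55% in P4 and P5 and between 0.558% and 1.97% in P6, while RMER16 points overlap.

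By species, every germline library lay above every somatic library for 5 of the 10 RMER17 species, RMER17A, RMER17A2, RMER17B, RMER17B2 and RMER17C, and for 0 of 9 RMER16 species. Over all 669 species with reads outside genes, 5.38% had this order. RMER17B took 0.682% to 1.60% of LTR reads outside genes in germline libraries and 0.0257% to 0.401% in P6 libraries. RMER17A2 took 0.298% to 1.25% and 0.0296% to 0.247%. Without the 4 shallow germline libraries and F1 P6 TBT libraries 7 and 8, 9 of 10 RMER17 species had no overlap, against 12.7% of all species. One RMER16 species went the other way. RMER16A3 took 0.0126% to 0.0868% in germline libraries and 0.131% to 0.960% in P6 libraries, an order that 2.84% of all species had (3.59% without those libraries).

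The RMER16A3 signal in somatic cells came mostly from the copies of 108 bases printed above. The copy at chrY:59665902-59666009 had 62.6 ± 12.7 CPM (SD) over 21 P6 libraries, from 44.1 to 85.3, and 1.82 CPM over 41 germline libraries, from 0 to 9.10. The identical copy at chrY:15425526-15425633 had 7.33 to 18.2 CPM in P6 and 0 to 2.64 in germline libraries. The chromosome 3 copy had 1.24 to 8.06 CPM in P6 and 0 to 1.17 in germline libraries. No range overlapped at the chromosome Y copies or at the chromosome 3 copy. Together they held 89.8% of the P6 CPM of RMER16A3 outside genes, 71.6%, 13.4% and 4.89% in this order, although the species has 694 loci. The other chromosome Y locus of the same sequence was at 0 in every library, and the intronic one averaged 1.91 CPM in P6.

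The RMER17 loci printed were chosen for high germline values, so their levels are a description. The RMER17C locus printed above (chr5:65046524-65046976) had 17.7, 34.8 and 60.7 CPM as lowest, median and highest in F1 P4, and 16.7, 32.0 and 51.1 CPM in F1 P5. In F3 it had 44.5, 107 and 315 CPM in P4 and 41.9, 78.2 and 267 CPM in P5. Its highest P6 value was 1.02 CPM in F1 and 2.48 CPM in F3, so germline and somatic libraries did not overlap. An RMER17B2 locus (chr9:122740138-122740473) had 7.39 to 24.2 CPM in F1 P4, 6.54 to 19.1 in F1 P5, 22.7 to 151 in F3 P4 and 0.957 to 47.3 in F3 P5. It was at 0 in all 12 F1 P6 libraries and in 8 of 9 F3 P6 libraries. The RMER17B locus printed above (chr8:84322589-84323156) had 6.45 to 19.7 CPM in F1 P4 and 3.11 to 9.36 in F1 P5, and was at 0 in all 21 P6 libraries. In F3 P4 it ranged from 0 to 42.5 CPM, with 2 libraries at 0. The RMER16-int locus printed above (chr13:66498074-66498298) behaved likewise, with 3.80 to 15.4 CPM in F1 P4, 2.50 to 14.6 in F1 P5, and a read in 1 of 12 F1 and 0 of 9 F3 P6 libraries. In F3 it was at 0 in 3 of 9 P4 and 3 of 9 P5 libraries. Other loci outside genes led in somatic cells, where an RMER17A locus (chrX:103024647-103025199) had 5.20 to 13.2 CPM in F1 P6 and 2.02 to 6.54 in F3 P6. It overlapped the germline libraries, at 0 to 6.40 CPM in F1 P4 and 0 to 11.6 in F3 P5.

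The RMER17 loci outside genes that were expressed were long and rich in CpG, and in germline cells rarely on chromosome Y. In F1 P5, 553 of 16074 RMER17 loci outside genes (3.44%) had a mean of at least 5 units, 1 unit being the value of 1 read. Their median length was 830 bases against 285 bases for the rest, and they had 12.6 CpG per kb against 7.63. Only 0.181% of them were on chromosome Y, against 8.29% of the rest. The corresponding counts were 99 loci in F1 P4 and 8 in F1 P6. Of all 626329 LTR loci outside genes, 10043 reached this limit in F1 P5, 2739 in F1 P4 and 797 in F1 P6. The 8 somatic loci of F1 P6 had a median length of 598 against 300 bases and 12.1 against 7.95 CpG per kb, and the 11 of F3 P6 had 553 against 300 bases and 12.1 against 7.95 CpG per kb. On chromosome Y were 12.5% of the former, against 8.0% of the rest, and 9.09% of the latter, against 8.01%. RMER16 loci outside genes that passed the same limit in F1 P5 numbered 101 of 4017 (2.51%), with a median length of 594 against 327 bases and 4.36 against 4.11 CpG per kb. A longer locus collects more reads, so the lengths are a description. Length, CpG and chromosome were not compared in this way over all LTR loci, so these traits are not shown to be particular to either group.

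The percent of each group's reads that lay outside genes was higher in P5 than in P4 cells of F1. For RMER17 it was 2.97% to 4.74% in F1 P4 and 7.27% to 15.7% in F1 P5, and for RMER16 4.79% to 9.02% and 13.8% to 22.4%, with no overlap in either group. All LTR reads had the same order, 1.83% to 2.51% and 3.84% to 7.34%. In F1 P6 without TBT libraries 7 and 8, RMER17 had 0.332% to 1.28% and RMER16 4.21% to 7.87%. In F3 without the shallow libraries, RMER17 had 3.86% to 10.7% in P4, 11.4% to 41.5% in P5 and 0.406% to 0.729% in P6. RMER16 had 7.24% to 13.1%, 20.8% to 47.9% and 4.36% to 5.98%.

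**Figure D2:**
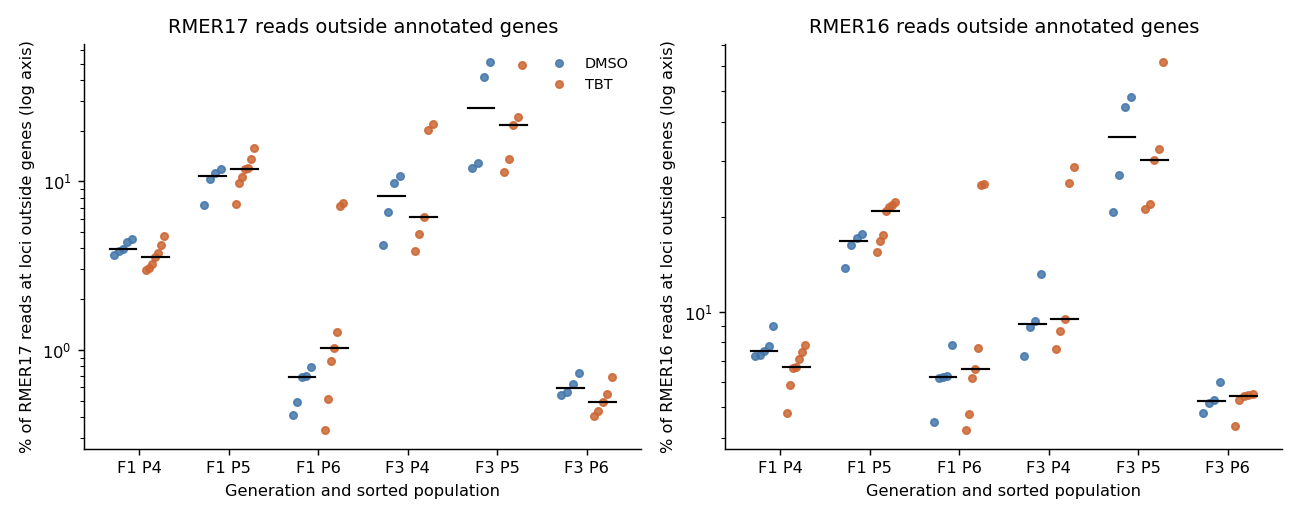
Percent of RMER17 (left) and RMER16 reads (right) at loci outside annotated genes, on a log axis, by generation and sorted population. Points are libraries and short bars are group medians. RMER17 lies at 2.97% to 4.74% in F1 P4, 7.27% to 15.7% in F1 P5 and, apart from TBT libraries 7 and 8, 0.332% to 1.28% in F1 P6.

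In F1, RMER16 and RMER17 loci were called in both directions between P5 and P4 cells, and those outside genes nearly all in the direction of P5. LTR loci in Sertoli cell genes averaged 26.0 CPM in F1 P4 and 54.8 CPM in F1 P5, 14.6 and 34.0 CPM in F3. Those in endothelial and blood cell genes averaged 27.7 and 48.8 CPM in F1 P4 and P5, and 25.5 and 46.7 in F3. Those in Leydig cell genes averaged 50.1 and 36.8 CPM, and 19.9 and 15.8 in F3, and those in interstitial cell genes 36.1 and 31.1, and 27.8 and 28.9 in F3. The part of other cells in the result was not tested. By limma, with exposure as a covariate and Benjamini-Hochberg adjustment over all loci tested (FDR below 0.05), 47 of 263 tested RMER16 loci were higher and 48 lower in P5, and 395 and 394 of 1963 RMER17 loci. Of all 101401 loci tested, 17.6% were higher and 21.6% lower. Outside genes, 10 RMER16 loci were higher and 0 lower of 44 tested (median log2 fold change 0.57), and 108 RMER17 loci higher and 5 lower of 206 (median 1.23). All loci outside genes had 1938 higher and 145 lower of 4565 (median 0.76). When loci outside genes were tested alone, 9 RMER16 and 99 RMER17 loci were higher, against 39.6% of all such loci, and 0 and 1 lower. Inside genes, 37 RMER16 loci were higher and 48 lower of 219 (median −0.10), and 287 and 389 of 1757 RMER17 loci (median −0.14). These splits depend on scaling and on the filter on low values. With no filter 154 RMER16 loci were higher and 29 lower, and 1019 and 252 RMER17 loci (5.74% and 2.87% of all loci). At a mean of at least 20 units 21 RMER16 loci were higher and 48 lower, and 100 and 365 RMER17 loci (12.1% and 48.1% of all loci). With each library at the same total, 59 RMER16 loci were higher and 21 lower, and 479 and 198 RMER17 loci, beside 21.0% higher and 11.4% lower of all loci, as the median over all loci moved from −0.11 to 0.04.

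**Figure D3:**
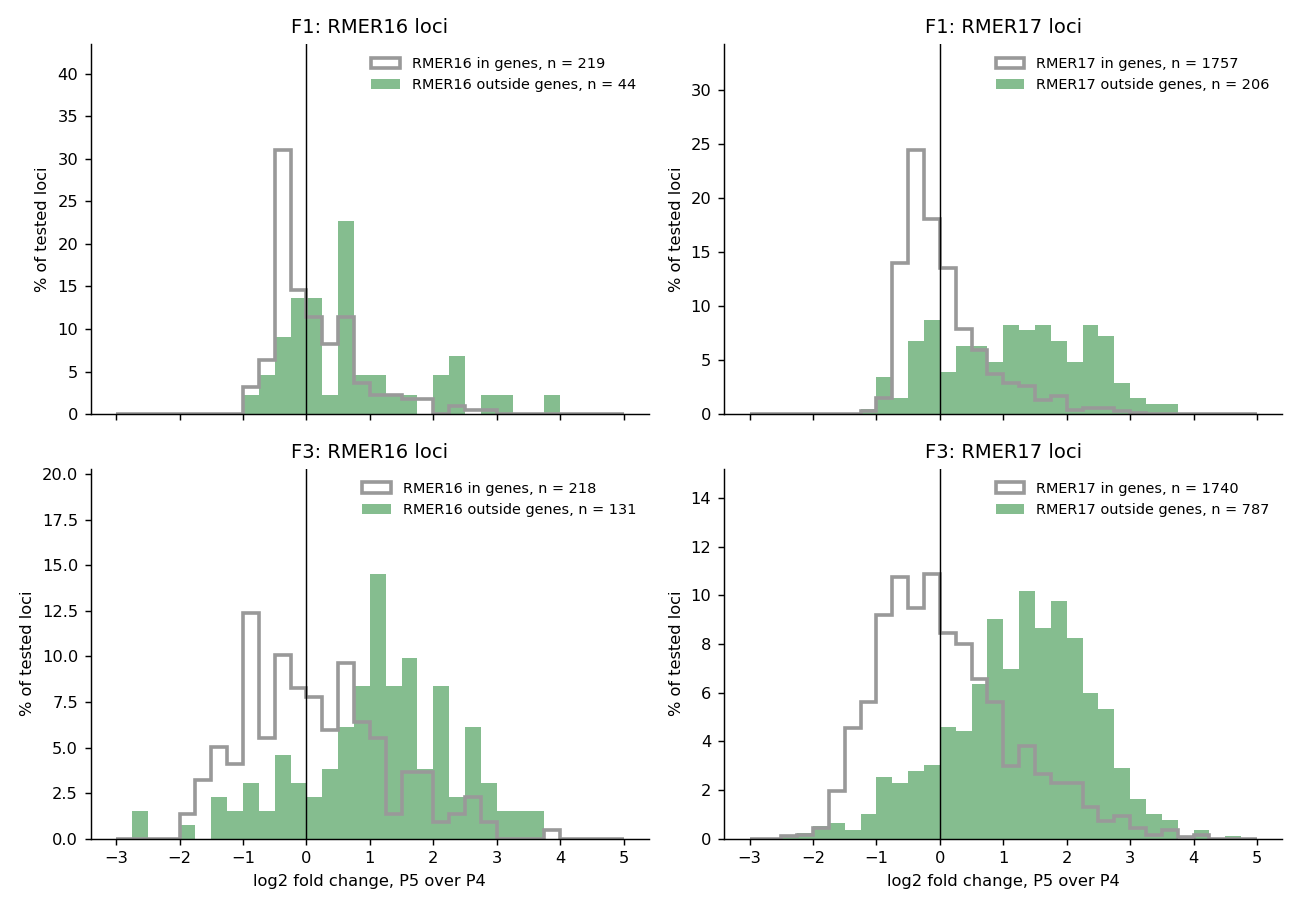
Distribution of log2 fold changes, P5 over P4, for tested RMER16 (left) and RMER17 loci (right) in F1 (top) and F3 (bottom), as percent of tested loci in bins of 0.25. Grey outlines are loci in genes and green fills loci outside genes. In F1, the median of RMER17 loci was 1.23 outside genes and −0.14 in genes.

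The F1 locus with the largest P5 value of its group outside genes was an RMER16-int copy at chr15:82583153-82584263. Its lowest, median and highest values were 7.41, 16.02 and 24.4 CPM in F1 P5 and 0, 0.969 and 4.13 CPM in F1 P4, with no overlap and a log2 fold change of 3.78 ± 0.41 (SE). In F3 the same locus had 0, 26.5 and 98.8 CPM in P5 and 0, 3.67 and 7.48 CPM in P4, and the single P5 library at 0 was TBT library 5, the shallowest. P6 cells had at most 2.72 CPM. An RMER16-int and an RMER16_Mm locus in an intron of Serpini1, which codes for a serine protease inhibitor, were also higher in P5, by 1.86 ± 0.19 and 1.85 ± 0.19. The RMER16-int locus had 5.55 to 9.99 CPM in P5 and 0.915 to 3.70 CPM in P4. An RMER16 locus in an intron of Acaa2, a mitochondrial thiolase gene of fatty acid oxidation, was lower in P5 (log2 fold change −0.62 ± 0.08), at 71.7 to 106 against 118 to 154 CPM.

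Of RMER17 loci without overlap between F1 populations, those with the largest rise all lay in introns. The RMER17C locus in Uggt2, a glucosyltransferase gene of glycoprotein folding, was higher by 2.81 ± 0.34, at 1.38 to 3.80 CPM in P5 and 0 to 0.597 CPM in P4. The RMER17A2 locus in Pdia4, which codes for a protein disulfide isomerase, was higher by 2.63 ± 0.17, at 19.2 to 30.0 against 1.30 to 7.39 CPM. P6 cells had more still at the Pdia4 locus, 66.7 to 107 CPM. The RMER17C locus in Aplp2, an amyloid precursor-like protein gene, was higher by 2.58 ± 0.12, at 45.2 to 87.6 against 8.70 to 14.3 CPM. The lower ones were an RMER17C2 locus in Asap1 (−0.74), an RMER17C locus in Fmr1 (−0.73) and an RMER17C2 locus in Ccdc73 (−0.59). Among called loci, 7 higher and 1 lower RMER16 loci and 41 higher and 7 lower RMER17 loci had populations that did not overlap. Over all loci tested, 2.11% were higher and 0.753% lower without overlap, against 2.66% and 0.38% of RMER16 and 2.09% and 0.357% of RMER17 loci.

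In F3, where germline libraries spread more widely, 5 of 349 RMER16 and 49 of 2527 RMER17 loci were higher in P5 and 0 lower in either group. Over all 98076 loci tested, 1.00% were higher and 0.0112% lower. The largest change without overlap was at an RMER17B locus outside genes (chr15:94506507-94507546), which was higher in P5 by 4.01 ± 0.84 (FDR 0.011 by limma). It had 8.03, 14.4 and 44.3 CPM as lowest, median and highest in F3 P5, and 0, 1.17 and 6.84 CPM in F3 P4. It was at 0 in all 9 F3 P6 libraries. An RMER16-int locus in an intron of the pseudogene Vmn2r-ps87 was higher by 3.80 ± 0.73 (FDR 0.0060), at 1.38 to 21.0 CPM in P5 against 0 to 1.36 CPM in P4, where 8 of 9 libraries were at 0. Outside genes, 4 of 131 RMER16 loci (median log2 fold change 1.23) and 27 of 787 RMER17 loci (median 1.39) were called, beside 600 of all 13415 (median 0.98). Tested alone, 20 RMER16 and 116 RMER17 loci outside genes were higher, against 13.1% of all such loci, and 2 and 1 lower. The F3 count moved with the libraries and the test used, and the share of all loci called moved with it. In all, 54 member loci were called (1.88%, against 1.01% of all loci). Without the 4 libraries under 2000000 reads, 202 were called (6.66%, against 3.65% of all loci), and with the likelihood ratio test on recovered reads 408 (14.2% against 7.29%). Leaving out P5 TBT library 5 alone gave 205 (6.63% against 3.06%). Some of these were lower in P5: 1 RMER16 and 21 RMER17 loci without the 4 libraries, 2 and 5 by the likelihood ratio test, and 1 and 7 without P5 TBT library 5. Leaving out P4 DMSO library 3, P4 DMSO library 4 or P4 TBT library 7, none of them shallow, gave 16 (0.575% against 0.42%), 21 (0.761% against 0.514%) and 29 (1.04% against 0.57%).

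Summed per species, 5 RMER16 species were higher and 2 lower in P5 than in P4 in F1, and 4 RMER17 species higher and 3 lower, where 24.1% and 43.4% of all 664 species were. RMER16-int was higher by 0.32 ± 0.05 and RMER17B by 0.28 ± 0.04, whereas RMER17C was lower (log2 fold change −0.16 ± 0.04). With only loci outside genes summed, all 9 RMER16 and all 10 RMER17 species were higher in P5, as were 93.9% of all species, and RMER17C turned to a log2 fold change of 0.93. When only loci averaging at least 5 units were summed, RMER16-int turned to −0.11 (FDR 0.016 by limma) and RMER17B, at 0.018, was no longer called (FDR 0.585 by limma). With each library at the same total, RMER17C, at −0.0076, was no longer called (FDR 0.486 by limma). In F3, the log2 fold changes were 0.64 ± 0.21 for RMER16-int (FDR 0.140), 0.57 ± 0.24 for RMER17B (FDR 0.289) and −0.34 ± 0.32 for RMER17C (FDR 0.717) by limma. Without the shallow libraries, RMER16-int at 0.68 (FDR 0.0089 by limma) and RMER17B at 0.46 (FDR 0.039 by limma) passed. Leaving out P5 TBT library 5 alone, they passed with an FDR of 0.014 and 0.034 by limma. With all libraries, by limma and without a replicate block, no member species was called in F3, where 2.87% of all species were higher and 0.151% lower. At equal totals 10 were called, beside 126 of all 663 species, and without the shallow libraries 7, beside 24.5% of all species. From loci outside genes alone, 4 RMER16 and 7 RMER17 species were higher, against 59.5% of all species.

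F0 exposure was compared within each population to ask whether ERV RNA differed between the TBT and DMSO lines. In none of the 6 populations did an RMER16 or RMER17 species total pass an FDR of 0.05, and 0% of all species did. RMER16-int had 746 ± 38 CPM in DMSO-F1 P5 cells (SD, n = 4) and 846 ± 87 in TBT-F1 P5 cells (n = 7), a log2 difference of 0.18 ± 0.08 (SE, FDR 0.897 by limma). In F1 P6 it had 709 ± 29 CPM (n = 5) and 827 ± 205 (n = 7), a difference of 0.19 ± 0.13 (FDR 0.742) that was −0.0017 without TBT libraries 7 and 8. RMER17B had 2359 ± 125 and 2497 ± 274 CPM in F1 P5, a difference of 0.08 ± 0.08 (FDR 0.999). In F3 P4 it had 2614 ± 316 CPM (n = 4) and 2146 ± 575 (n = 5), a difference of −0.33 ± 0.25 (FDR 0.508). RMER17C, the species with the most reads, had 8633 and 6672 CPM there, a difference of −0.46 ± 0.29 (FDR 0.508), and 6784 and 6844 CPM in F3 P6, a difference of 0.01 ± 0.02 (FDR 0.840).

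Differences of the member species had one sign in some populations without passing the test. In F1 P5, 9 of 9 RMER16 and 10 of 10 RMER17 species were above 0, with medians of 0.10 and 0.06, beside 73.2% of all 668 species (median 0.03). In F3 P4, 8 of 9 and 10 of 10 were below 0, with medians of −0.30 and −0.39, beside 89.6% of all 662 species (median −0.41). At equal library totals RMER16-int was at 0.25 and RMER17B at 0.082 there, and without the shallow libraries, both of them TBT, the log2 differences were −0.026 and −0.044. Species totals share libraries, so these counts are not independent. The interaction of exposure with germline population called 0 of 664 species in F1 and 0 of 662 in F3 (0%), with a lowest member FDR of 0.997 and 0.999 by limma.

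**Figure D4:**
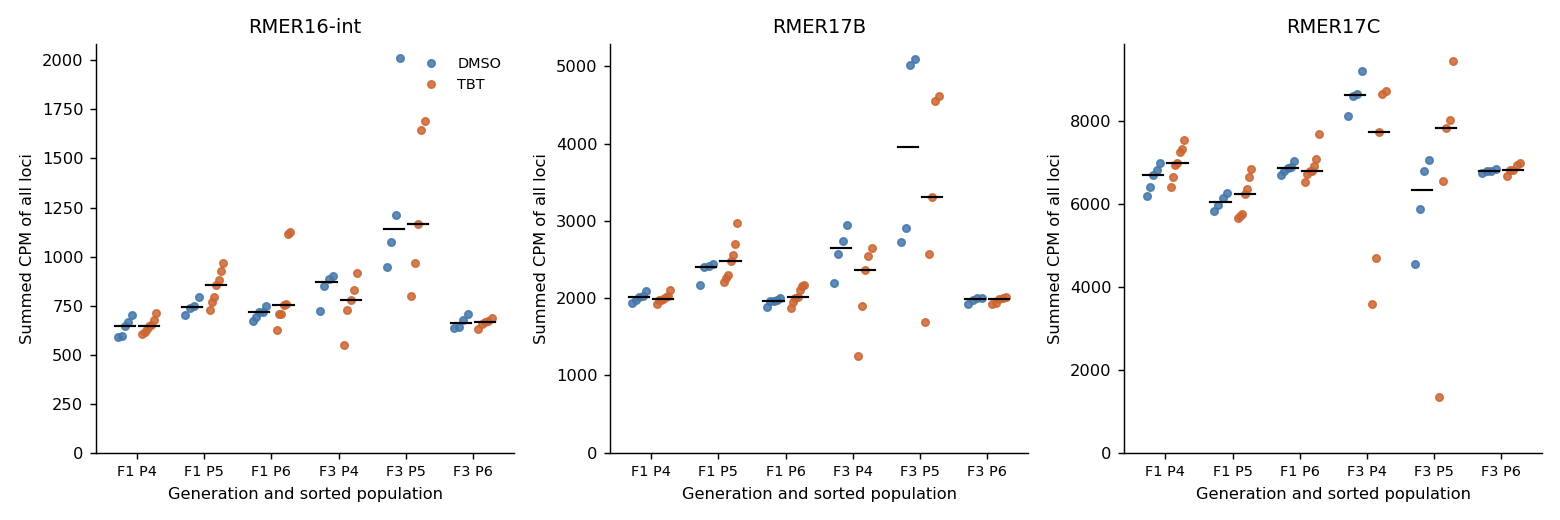
Summed CPM of all loci of RMER16-int, RMER17B and RMER17C, by generation and sorted population. Points are libraries and short bars are group medians. DMSO and TBT points overlap in every population, for example 746 ± 38 and 846 ± 87 CPM for RMER16-int in F1 P5, and F3 P5 spreads most.

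Between TBT and DMSO groups, 2 member loci were called, both of 1 gene and in F3 P6 cells. Of all loci tested, 0% were called in F1 P4, 0.0106% in F1 P5, 0.00341% in F1 P6, 0% in F3 P4 and F3 P5, and 0.0343% in F3 P6. The 2 members were RMER17A2 copies in an intron of Akr1e1, an aldo-keto reductase gene, and their first bases are printed because they carry the call, with each CG in capitals.
RMER17A2, chr13:4602920-4603219, plus strand: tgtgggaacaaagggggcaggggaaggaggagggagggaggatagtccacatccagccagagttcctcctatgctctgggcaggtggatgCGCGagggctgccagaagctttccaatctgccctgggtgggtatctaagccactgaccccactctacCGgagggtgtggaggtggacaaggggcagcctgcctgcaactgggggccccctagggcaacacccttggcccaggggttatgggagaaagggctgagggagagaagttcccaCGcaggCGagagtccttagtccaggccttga
RMER17A2, chr13:4603585-4603884, plus strand: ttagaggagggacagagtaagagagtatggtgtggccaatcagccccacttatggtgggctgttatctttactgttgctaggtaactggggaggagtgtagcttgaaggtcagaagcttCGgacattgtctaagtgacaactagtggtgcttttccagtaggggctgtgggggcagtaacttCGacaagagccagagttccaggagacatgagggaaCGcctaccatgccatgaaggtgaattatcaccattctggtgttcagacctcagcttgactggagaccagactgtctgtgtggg
The loci span chr13:4602920-4603489 and chr13:4603585-4603899 and had identical values in all F3 P6 libraries.

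At the Akr1e1 loci, DMSO-F3 P6 libraries 1 to 4 had 10.1, 11.9, 11.4 and 8.47 CPM. TBT-F3 P6 libraries 5 to 9 had 2.02, 2.72, 3.34, 2.28 and 4.03 CPM. Every TBT library was below every DMSO library, with a log2 fold change of −1.82 ± 0.23 (SE) and an FDR of 0.00076 by limma. LTR loci in germ cell genes summed to 24.2, 14.4, 242 and 208 CPM in the 4 DMSO libraries and to 17.4 to 22.8 CPM in the TBT libraries. Their part in the result was not tested. All 7 tested LTR loci of Akr1e1, of 8 in the gene, were called, with log2 fold changes from −1.82 to −1.65, so the difference was shared by LTR loci of other species in the gene. Leaving out DMSO library 2 raised the count of member loci called in F3 P6 to 8, and the share of all loci called to 0.136%. In F1 P6 the groups overlapped, with 9.73 to 14.4 CPM in DMSO and 5.59 to 28.5 CPM in TBT libraries. In F1 P5 the 4 DMSO libraries had 7.24 to 7.89 CPM and the 7 TBT libraries 4.09 to 10.4 CPM. The difference between generations was not tested.

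**Figure D5:**
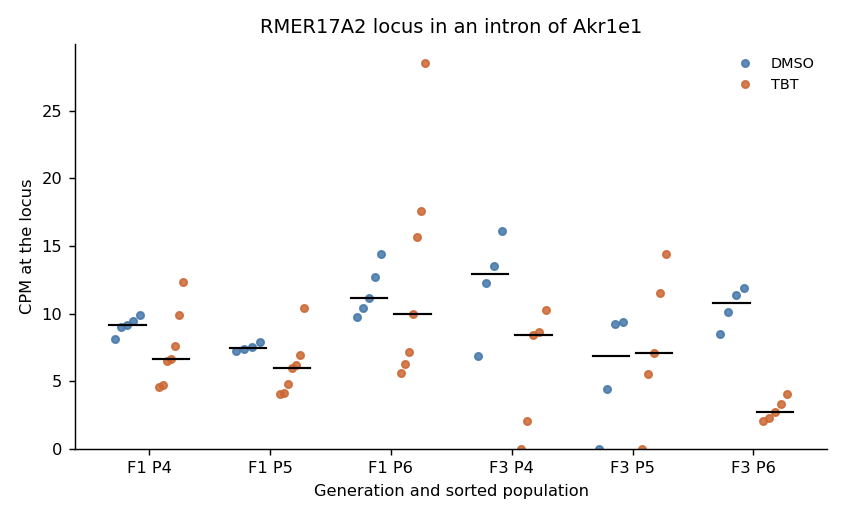
CPM at an RMER17A2 locus in an intron of Akr1e1, by generation and sorted population. Points are libraries and short bars are group medians. The 5 TBT libraries of F3 P6 lie between 2.02 and 4.03 and the 4 DMSO libraries between 8.47 and 11.9, while the groups overlap in the other populations.

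In the other comparisons the member loci with the lowest p did not pass the FDR. LTR loci in Sertoli cell genes averaged 82.1 CPM in DMSO-F1 P5 and 39.2 CPM in TBT-F1 P5 cells, and those in Leydig cell genes 94.9 and 18.1 CPM in DMSO-F1 and TBT-F1 P4 cells, and their part in the differences was not tested. In F1 P5 this was an RMER16-int locus outside genes (chr14:78135970-78139051), at 0 in 3 DMSO libraries and 1.18 CPM in the fourth, against 0.318, 4.56 and 8.50 CPM as lowest, median and highest of 7 TBT libraries. Its log2 fold change was 3.59 ± 0.68 (FDR 0.102 by limma), and it was called when only loci outside genes were tested (FDR 0.042). Without TBT library 45-3 or DMSO library 48-4 it also passed, with an FDR of 0.012 and 0.016, and over all alternatives the FDR ran from 1.6e-08 with no filter on low values to 0.293. In F3 P5 the same locus had 0 to 21.7 CPM in DMSO and 1.91 to 15.6 CPM in TBT libraries, which overlapped. Among RMER17 loci of F1 P5, an RMER17C copy at chr19:25209410-25209839 had 0 to 0.673 CPM in DMSO and 0.869 to 4.42 CPM in TBT libraries (2.82 ± 0.57, FDR 0.132 by limma). It passed by the likelihood ratio test on recovered reads (FDR 0.0029 by edgeR) and with no filter (FDR 0.00013 by limma). In F3 P6, an RMER16B locus in an intron of Lama2, a laminin gene, had 11.1 to 15.3 CPM in DMSO and 18.9 to 24.8 CPM in TBT libraries (0.65 ± 0.14, FDR 0.124 by limma). By the likelihood ratio test on recovered reads it passed (FDR 0.014 by edgeR). In F1 P6 the Lama2 locus had 10.02 to 19.5 and 2.70 to 17.1 CPM.

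At F1 P4, an RMER17C locus in an intron of Atp11b, a phospholipid flippase gene, had 4.64 to 8.32 CPM in DMSO and 9.81 to 19.2 CPM in TBT libraries (0.84 ± 0.20, FDR 0.582 by limma). An RMER16-int locus at chr9:15436443-15438139 had 5.07 to 7.09 and 0 to 7.36 CPM there (−2.52 ± 0.68, FDR 0.582 by limma). In F3 P4, an RMER16-int locus (chr13:80262767-80264950) was at 0 in 4 DMSO libraries and had 0 to 12.2 CPM in TBT libraries (4.20 ± 1.23, FDR 0.870 by limma). An RMER17B locus (chr17:69569825-69570253) had 3.94 to 11.6 CPM in DMSO and 0 to 0.938 CPM in TBT libraries of F3 P4 (−3.96 ± 1.02, FDR 0.870 by limma). In F1 P6, the RMER16A3 copy at chrY:59665902-59666009 had 55.2 to 83.3 CPM in DMSO and 44.1 to 57.5 CPM in TBT libraries, which overlapped (−0.52 ± 0.13, FDR 0.999 by limma). In F1 P6, the RMER17B locus in an intron of Ncald had its highest values, 8.54 and 7.81 CPM, in TBT libraries 7 and 8 (2.36 ± 0.67, FDR 0.999 by limma). It passed by the likelihood ratio test alone (FDR 0.0095 by edgeR). In F3 P5, an RMER16-int locus (chr10:35473031-35477145) had 0 to 0.923 CPM in DMSO and 0 to 31.6 CPM in TBT libraries (3.81 ± 1.35, FDR above 0.99 by limma), and an RMER17A2 locus (chr8:85435795-85436116) had 1.39 to 10.4 and 0 to 0.401 CPM (−3.83 ± 1.35, FDR above 0.99 by limma). Both passed by the likelihood ratio test (FDR 0.024 and 0.033 by edgeR). At an unadjusted p below 0.05, F1 P5 had 43 of 378 RMER16 loci (11.4%), 28 of them higher in TBT (65.1%), and 228 of 2704 RMER17 loci (8.43%), 181 of them higher (79.4%), where 6.89% of all loci tested were, 67.4% of them higher. Over the other 5 populations the share at that p was 1.16% to 8.85% of RMER16 loci, 1.58% to 9.19% of RMER17 loci and 1.01% to 7.96% of all loci. With the likelihood ratio test on recovered reads in F1 P5, 5 RMER16 loci were higher, and 15 RMER17 loci higher and 3 lower, against 0.317% of all loci in either direction. That test also called 137 member loci in F3 P5, against 3.15% of all loci, and 25 in F3 P6, against 0.338%.

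No window of methylated DNA at a member locus was called between exposure groups in P6 cells. MBD-seq enriches fragments with methylated CpG, and the counts cover 100-base windows. The listed windows touched only 136 of 5143 RMER16 and 478 of 23353 RMER17 loci in F1, and 177 and 528 in F3. Most member loci were therefore not covered. In F1, 152 windows overlapped RMER16 and 568 overlapped RMER17 loci, of which 20 and 94 passed the count filter. None was called by the edgeR quasi-likelihood test at an FDR of 0.05, where 11 of 34559 windows tested (0.0318%) were, and at an unadjusted p below 0.05 there were 0 RMER16 and 3 RMER17 windows (3.19%), against 5.01% of all windows. In F3, 47 of 212 RMER16 and 139 of 628 RMER17 windows were tested, 0 of all 47563 windows were called (0%), and 3 and 9 member windows had an unadjusted p below 0.05 (6.38% and 6.47%, near the 5.19% of all windows). RMER16 windows took 0.0863% ± 0.0018 of counts in DMSO-F1 (SD, n = 3) and 0.0871% ± 0.0024 in TBT-F1 (n = 4), and 0.106% ± 0.005 and 0.109% ± 0.009 in F3 (n = 5 and 7). RMER17 windows took 0.302% ± 0.008 and 0.302% ± 0.002 in F1, and 0.319% ± 0.008 and 0.319% ± 0.007 in F3.

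The member window with the lowest p in F3 lay in a copy of the species called RMER16 within 4930599N23Rik (chr6:39120601-39120700). DMSO libraries had 28, 28, 18, 19 and 20 counts and TBT libraries 17, 14, 16, 10, 8, 10 and 18 there, a log2 fold change of −0.74 (FDR 0.745 by edgeR). The lowest DMSO count equalled the highest TBT count. In RMER17B, the windows with the lowest p had log2 fold changes of 0.52 in F1 (chr2:61529001-61529100, FDR 0.974 by edgeR) and 0.51 in F3 (chr8:100794201-100794300, FDR 0.928 by edgeR). No CpG was present in 58.6% of RMER16 and 53.7% of RMER17 windows in F1, and in 60.8% and 48.7% in F3, against 53.0% of all windows in either generation.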

How the data were processed

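RNA-seq of P4, P5 and P6 cells and MBD-seq of P6 cells from E18.5 fetal testes were analysed from deposited tables. RNA libraries were made by SMART-seq with oligo-dT priming, and methylated DNA was captured with MethylMiner. Per the labels and methods, the authors trimmed reads with Trim Galore, aligned them with STAR to mm10 and counted them at RepeatMasker LTR loci with a modified ERVmap, then applied TMM scaling in edgeR, without pooling libraries. Versions and the handling of reads with several alignments are not given in the sources used here. The deposited signal values are TMM-scaled CPM, and dividing each by the smallest value above 0 of its library gave whole reads within 0.1 for 100% of values. MBD-seq values are raw read counts per window of 100 bases as deposited, and a deposited CF column, an other kind of whole number per window, was taken as its CpG count, which it equalled in the member windows named here.

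Loci were placed in exons, introns or outside genes with the GENCODE annotation of GRCm38. CPM was tested with limma 3.58.1 (R 4.3.3, trended variance) on log2(CPM + 1 unit), 1 unit being the median value of 1 read, so fold changes of low loci are understated. Testing was done in each population alone, on loci averaging 5 units or more there, with Benjamini-Hochberg adjustment over all loci tested and a threshold of 0.05. Species totals were summed CPM, tested likewise. P5 was compared with P4 with exposure as a covariate, since both were normalized in 1 table, and P6, normalized apart, was given as values. MBD-seq counts were tested with edgeR 4.0.16 (quasi-likelihood, TMM, filterByExpr), and a window was a member if it overlapped a locus by at least 1 base. Alternatives were other tests (edgeR on recovered reads, DESeq2 1.42.0 on windows), pseudocounts of 0.25 and 4 units, other filters, equal library totals, loci outside genes alone, each library left out and libraries that stand apart left out. Scripts were tested on simulated data. The precision of a value is limited by depth, from 246520 to 8161548 LTR reads per library.

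The members and lists were chosen with earlier results of these data known. Loci named were those past the FDR, else the lowest p per group and comparison. For P5 against P4, the 3 higher and 3 lower called loci with the largest change and no overlap between populations were named, where there were that many. The 3 loci with the highest means per group and population were considered as levels, and a few loci outside genes and the RMER16A3 copies were chosen after their values were seen.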

Additional observations from a re-analysis of the deposited data

Results flagged for a closer look

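Of 139 groups of 4 to 10 libraries checked for a library far from the others, 14 had one, and chance alone flags about 1 in 20 groups. F3 P5 TBT library 5, the shallowest library, had 0.660% of LTR reads at RMER16 elements, where the other TBT libraries had 0.278% to 0.357%. Of its RMER16 reads, 61.7% lay outside genes (others 21.2% to 32.8%), and RMER16 took 1.31% of its LTR reads outside genes (others 0.925% to 1.00%). F3 P5 DMSO library 2, another shallow library, lay low in that RMER16 share, at 0.674% against 0.933% to 0.964%. F1 P5 TBT library 45-5 lay high, at 1.03% against 0.807% to 0.902%. F3 P6 TBT library 9 had 4.36% of RMER16 reads outside genes, below the 5.27% to 5.51% of the others.

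RMER17 took 3.71% of LTR reads outside genes in F3 P4 DMSO library 3 (others 4.61% to 4.79%) and 4.30% in F3 P4 TBT library 8 (others 3.89% to 3.98%). The RMER17B total was 2172 CPM in F1 P5 DMSO library 48-4, below the 2407 to 2444 CPM of the other 3. At single loci, the RMER17C locus in Atp11b had 19.2 CPM in F1 P4 TBT library 47-3 (others 9.81 to 13.3). Library 48-4 was also the only F1 P5 DMSO library with reads at the RMER16-int locus on chromosome 14, at 1.18 CPM. The other loci had reads in 1 library of a group whose other libraries were at 0: RMER17B in Ncald at 0.859 CPM in F1 P6 DMSO library 12, RMER16-int at chr10:35473031-35477145 at 0.923 CPM in F3 P5 DMSO library 4, and RMER17A2 at chr8:85435795-85436116 at 0.401 CPM in F3 P5 TBT library 8. The part of depth in these values was not tested.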

How the results depend on the processing

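Counts of member loci and species called are given first, with the percent of all loci or species called under the same setting in parentheses, and where a value moved the cause was not tested. In F1 P5, TBT against DMSO called 0 member loci, but 23 by the likelihood ratio test (0.317%), 46 with no filter (0.202%), 1 among loci outside genes (0.179%) and 0 to 3 with 1 library left out (without DMSO 43-5, TBT 45-3 or DMSO 48-4). In F1 P6 it called 1 by the likelihood ratio test (0.0523%) and 3 with no filter (0.00585%) in place of 0, in F3 P5 137 by the likelihood ratio test (3.15%) in place of 0, and in F3 P6 25 by that test (0.338%) and 0 outside genes (0.0791%) in place of 2, with 2 to 8 when 1 library was left out. P5 against P4 in F1 called 884 loci (39.3%), or 1454 with no filter (8.61%), 534 at a mean of at least 20 units (60.2%) and 109 outside genes (41.6%). In F3 it called 54 loci (1.01%), or 408 by the likelihood ratio (7.29%) and 292 by the quasi-likelihood test (5.05%), 15 with no filter (0.0822%), 7 at a mean of at least 20 units (0.58%), 95 at equal totals (1.31%), 139 outside genes (13.2%), 202 without libraries under 2000000 reads (3.65%) and 16 to 205 with 1 library left out. For F3 species the count was 0 (3.02%), or 1 by the quasi-likelihood test (3.63%), 10 at equal totals (19.0%), 11 outside genes (59.7%), 7 without shallow libraries (24.5%) and 0 to 5 with 1 library left out. The remaining 129 alternatives of these counts stayed within 1.5 times.

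P4 and P5 cells were sorted from testicular cell suspensions, but the numbers that their libraries share are not stated to mark 1 animal. Correlations of their deviations ran from −0.006 to 0.278 in F1 and −0.088 to 0.460 in F3, were above 0.1 in 6 of 11 and 7 of 9 pairs, and were highest with the own number in 5 of 11 and 4 of 9, so pairing was not established from every pair. With the number as a replicate block, F3 gave 119 loci (1.93% of all loci tested were called) and 4 species (6.04% of all; RMER16-int passed), and F1 993 loci (44.7%) and 16 species (73.5%).

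Most signs that turned were of species whose difference did not pass the test. RMER16-int, TBT against DMSO, became −0.054 (equal totals) and −0.12 (outside genes) in F1 P4, −0.091 (loci of at least 5 units) and −0.0017 (without TBT 7 and 8) in F1 P6, 0.25 and 0.22 (equal totals, outside genes) in F3 P4, 0.074 (equal totals) and 0.012 (without shallow libraries) in F3 P5, and 0.49 outside genes in F3 P6. RMER17B became 0.029 (loci of at least 5 units) in F1 P4, −0.018 likewise in F1 P6, 0.082 (equal totals) in F3 P4, 0.098 (without shallow libraries) in F3 P5, and 0.0081 (loci of at least 5 units) and 0.00027 (equal totals) in F3 P6. RMER17C became −0.0051 (equal totals) in F1 P5, −0.0069 (loci of at least 5 units) and −0.013 (equal totals) in F1 P6, 0.073 outside genes in F3 P4, 0.13 (quasi-likelihood), 0.020 (equal totals) and 0.27 (without shallow libraries) in F3 P5, and −0.25 outside genes in F3 P6. Of differences that passed, in P5 against P4, RMER16-int became −0.11 with loci of at least 5 units in F1, RMER17C 0.93 outside genes and −0.0076 (call lost, FDR 0.486 by limma) at equal totals in F1, and RMER17B 0.018 (call lost, FDR 0.585 by limma) with loci of at least 5 units in F1. In F3, where it did not pass, RMER17C became 0.78 outside genes. With 1 library left out, RMER16-int ranged from −0.0073 to 0.055 in F1 P4, −0.20 to 0.17 in F3 P5 and −0.028 to 0.022 in F3 P6, RMER17B from −0.019 to 0.0091 in F1 P4 and −0.017 to 0.0048 in F3 P6, and RMER17C from −0.012 to 0.028 in F1 P6 and −0.31 to 0.40 in F3 P5.

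The shallowest library, in F3 P5, had 246520 reads. P6 values of 0 mean no read seen, not absence.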
